A study of Mus musculus with 13 samples.

Results

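The 10 genes described here make and control the MHC class II route of antigen presentation. They were chosen by name: the class II chains H2-Aa, H2-Ab1 and H2-Eb1, the peptide-exchange subunits H2-DMa and H2-DMb1, the invariant chain Cd74, the transactivator Ciita, the promoter-binding subunits Rfx5 and Rfxap, and the costimulatory ligand Cd86. All 10 were among the 14911 measured genes. RNA was sequenced from the whole hamstring of female C57BL/6 mice on day 4 after cardiotoxin was injected into it at 0.32 mg/kg; cardiotoxin is a venom protein that kills the fibres. Dexamethasone, a synthetic glucocorticoid, was injected into the peritoneum daily at 10 mg/kg in 9 mice, and saline in 4 mice. Each library came from 1 mouse and held 28021111 to 34942266 reads in dexamethasone and 25531487 to 32537345 in saline. The submitters excluded a further saline mouse in which bone formed, whereas all dexamethasone mice formed bone, so effects of the drug and of bone formation cannot be told apart.

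Class II molecules are pairs of an alpha and a beta chain that carry peptides from engulfed proteins to the cell surface, where CD4+ T cells read them. Cd74 fills the groove of newly made pairs, and the H2-DM pair swaps its remnant for antigen peptides. Ciita binds no DNA itself: it is recruited to class II promoters by the RFX complex (Rfx5, Rfxap and Rfxank), CREB-type factors and NF-Y, which sit on neighbouring X and Y boxes. B cells, dendritic cells and activated macrophages are the main carriers, and injured muscle fills with macrophages in the first days. C57BL/6 mice lack a working E alpha gene, so in this strain the H2-Eb1 message has no alpha partner.

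Letters of an X box followed by a Y box can be read in 5 promoter windows from RefSeq (GRCm38.p6, the assembly also called mm10). They are shown because Ciita is recruited through factors on such boxes, and their use in these muscles was not tested. Promoters running from 250 bases before to 50 bases after a gene start were matched for 5 of the 10 members, H2-Aa, H2-Eb1, H2-DMa, H2-DMb1 and Rfx5, and also for H2-DMb2 and for H2-Oa and H2-Ob, chains of the inhibitor of H2-DM. Each window is written 5′ to 3′ on the strand of the gene, with the X box core GNAAC and the Y box GATTGG in capitals.
H2-Aa: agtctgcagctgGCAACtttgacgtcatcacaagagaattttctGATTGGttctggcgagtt
H2-Eb1: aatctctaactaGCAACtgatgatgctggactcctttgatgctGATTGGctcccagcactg
H2-DMb1: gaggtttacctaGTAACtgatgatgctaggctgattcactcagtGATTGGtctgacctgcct
H2-Oa: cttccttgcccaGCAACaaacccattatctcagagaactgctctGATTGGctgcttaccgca
H2-Ob: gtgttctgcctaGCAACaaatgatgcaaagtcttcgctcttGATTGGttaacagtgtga

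These windows lie at chr17:34287855-34287916 on the minus strand for H2-Aa, and on the plus strand at chr17:34305764-34305824 for H2-Eb1, chr17:34153085-34153146 for H2-DMb1, chr17:34092291-34092352 for H2-Oa and chr17:34238806-34238864 for H2-Ob. The H2-DMb1 window begins after the gene start of 34153072 in GENCODE M21, used below for gene positions. RefSeq and GENCODE thus place the start of that gene differently. The gap between the capitals was 27 bases in H2-Aa, H2-DMb1 and H2-Oa, 26 in H2-Eb1 and 24 in H2-Ob. The pair of letters GNAAC and GATTGG, 10 to 40 bases apart on either strand, was found in 554 of 32851 promoter windows (1.69%); it was chosen after these windows had been read. A longer X box consensus, which can overlap GNAAC and was searched on both strands, occurred in 3.94% of windows, GATTGG in 16.1%, and ATTGG, which GATTGG contains, in 37.4%. The longer X box followed by GATTGG after 5 to 35 bases occurred in 20 windows (0.0609%), and H2-DMb1 and H2-Ob were among them. The 2 windows of H2-DMa held the longer X box in 1 and GATTGG in the other. Rfx5 and H2-DMb2 held GATTGG, and neither pair was found in them or in H2-DMa. Such matches describe letters only.

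**Figure D1:**
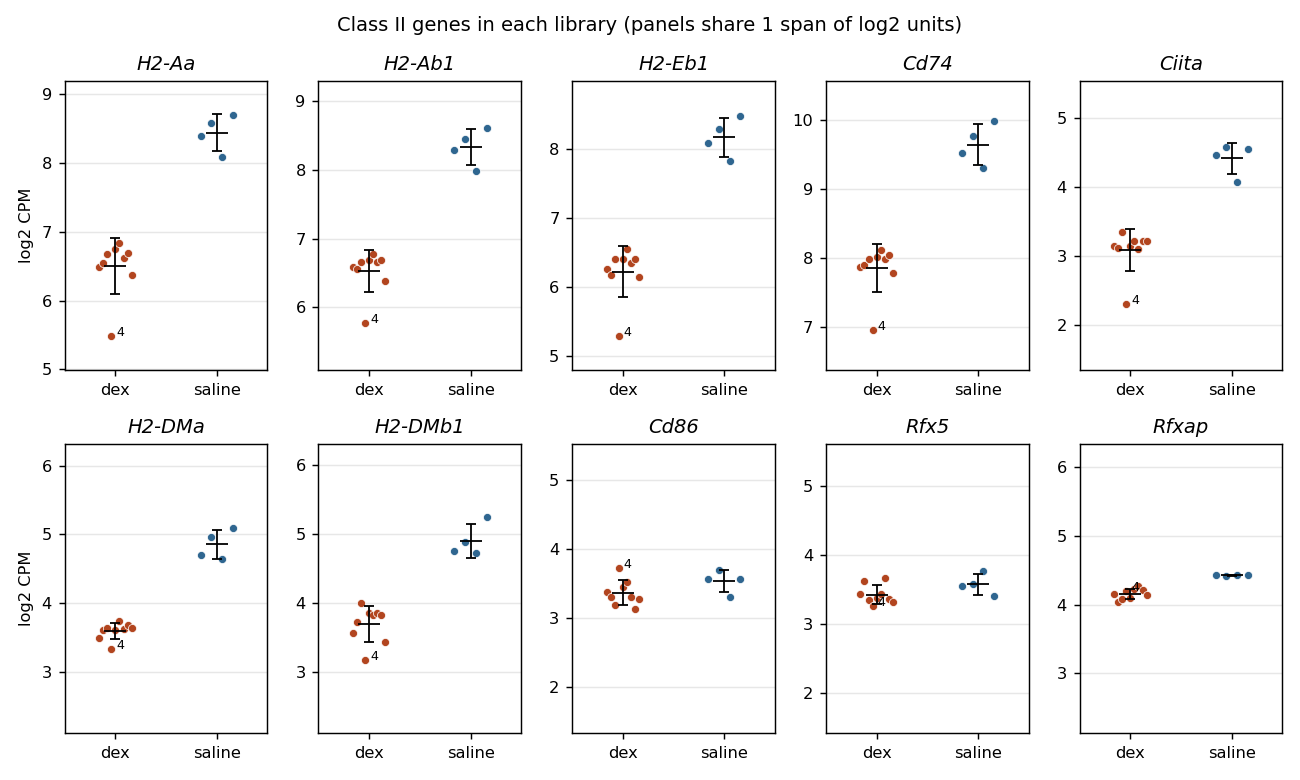
log2 CPM of each of the 10 genes (vertical axis, the same span of log2 units in every panel) in 9 dexamethasone (orange, left) and 4 saline libraries (blue, right); points are libraries, the bar and whiskers the mean and SD, and 4 marks dexamethasone library 4. In 8 panels every dexamethasone library lies below every saline library, and in the panels of Cd86 and Rfx5 the groups overlap.

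Messages for the class II chains were lower in every dexamethasone muscle than in any saline muscle. H2-Ab1, H2-Aa, H2-Eb1 and Cd74 were 3.48- to 3.88-fold lower, and H2-DMa, H2-DMb1 and Ciita 2.31- to 2.51-fold lower. Of the 10 genes, 8 fell and 0 rose at an adjusted p under 0.05 (limma, Benjamini-Hochberg over all genes), where 22.9% of all genes fell, 25.2% rose and 48.1% changed either way. Falls of at least 2-fold numbered 7 of 10, against 2.69% of all genes. The groups did not overlap for the same 8, all lower in dexamethasone, which was so for 12.9% of all genes. The median log2 fold change was -1.29, against 0.0071 over all genes. In whole muscle, fewer cells carrying class II and less message per cell cannot be told apart.

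Values are log2 CPM, library-size scaled read counts on a log scale. H2-Aa (Entrez 14960; mm10 chromosome 17, 34282744 to 34287823, minus strand) encodes the A alpha chain. It stood at 5.48, 6.62 and 6.84 log2 CPM in dexamethasone libraries (lowest, median, highest), and at 8.39, 8.58, 8.08 and 8.70 in saline libraries 1, 2, 3 and 5. The lowest dexamethasone value was library 4, with the next at 6.37, and saline library 3 was the lowest of its group. The mean was 6.50 ± 0.41 in dexamethasone and 8.44 ± 0.27 in saline (SD, n = 9 and 4), a log2 fold change of -1.94 (SE 0.19, limma adjusted p 1.64e-06).

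H2-Ab1 (Entrez 14961; chromosome 17, 34257689 to 34269419) encodes the A beta chain that pairs with it. It stood at 5.78, 6.66 and 6.78 log2 CPM in dexamethasone libraries, and at 8.29, 8.45, 7.99 and 8.60 in saline libraries. The same libraries were lowest in each group, and the groups were apart by more than 1 log2 unit. Its log2 fold change was -1.80 (SE 0.15, limma adjusted p 3.56e-07).

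H2-Eb1 (Entrez 14969; chromosome 17, 34305867 to 34316674) encodes the E beta chain. It stood at 5.29, 6.35 and 6.54 log2 CPM in dexamethasone libraries, and at 8.09, 8.29, 7.82 and 8.49 in saline libraries. The order of the libraries was again that of the A chains at both ends. The log2 fold change was -1.95 (SE 0.18, limma adjusted p 7.79e-07). An antisense gene, Gm20513, overlaps it, and since the strand setting of the read counting is not given in the sources used here, reads of the pair cannot be told apart.

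Cd74 (Entrez 16149; chromosome 18, 60803848 to 60812652), the invariant chain, was the most abundant of the 10. It stood at 6.95, 7.98 and 8.11 log2 CPM in dexamethasone libraries, and at 9.51, 9.77, 9.31 and 9.98 in saline libraries. Dexamethasone library 4 was lowest, with the other 8 between 7.77 and 8.11. The log2 fold change was -1.80 (SE 0.17, limma adjusted p 1.29e-06). In recovered reads Cd74 held 3462 to 8226 per dexamethasone library and 18117 to 32930 per saline library.

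The peptide-exchange subunits fell less. H2-DMa (Entrez 14998; chromosome 17, 34119541 to 34139101) stood at 3.33, 3.62 and 3.75 log2 CPM in dexamethasone libraries, and at 4.71, 4.96, 4.65 and 5.10 in saline libraries. It had the smallest spread of the 7 genes that fell by at least 2-fold among dexamethasone libraries, and its log2 fold change was -1.26 (SE 0.09, limma adjusted p 8.41e-08). H2-DMb1 (Entrez 14999; chromosome 17, 34153072 to 34160230) stood at 3.17, 3.82 and 4.00 log2 CPM in dexamethasone libraries, and at 4.75, 4.88, 4.73 and 5.26 in saline libraries. Its log2 fold change was -1.21 (SE 0.13, limma adjusted p 4.55e-06). H2-DMb2, a near-identical neighbour, was 3.02-fold lower, and reads between these copies are uncertain; H2-DMa overlaps Brd2 and an antisense transcript on the other strand and 1 more, annotated as antisense, on its own strand, so its reads too may be shared.

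Among the regulators, Ciita (Entrez 12265; chromosome 16, 10480059 to 10528418) stood at 2.31, 3.15 and 3.36 log2 CPM in dexamethasone libraries, and at 4.46, 4.58, 4.08 and 4.55 in saline libraries. Library 4 stood apart from the other 8 dexamethasone libraries, which lay between 3.11 and 3.36. The log2 fold change was -1.33 (SE 0.15, limma adjusted p 5.64e-06). Ciita is transcribed from several promoters with different cell use, which a value per gene does not separate, and Dexi overlaps it on the other strand.

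The RFX subunits moved little. Rfxap (Entrez 170767; chromosome 3, 54803115 to 54807791) stood at 4.04, 4.16 and 4.27 log2 CPM in dexamethasone libraries, and between 4.42 and 4.43 in all saline libraries. The groups did not overlap, yet the fall was 1.20-fold, a log2 fold change of -0.27 (SE 0.05, limma adjusted p 0.000562). Rfx5 (Entrez 53970; chromosome 3, 94954075 to 94961561) stood at 3.26, 3.37 and 3.67 log2 CPM in dexamethasone libraries, and at 3.55, 3.58, 3.77 and 3.40 in saline libraries. The groups overlapped, with a log2 fold change of -0.15 (SE 0.09, limma adjusted p 0.156). An antisense gene, B230398E01Rik, overlaps Rfx5, and its reads may be shared as well.

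Cd86 (Entrez 12524; chromosome 16, 36603869 to 36666081) encodes the ligand that gives T cells their second signal through CD28. It stood at 3.14, 3.31 and 3.73 log2 CPM in dexamethasone libraries, and at 3.56, 3.69, 3.31 and 3.56 in saline libraries. Here dexamethasone library 4 was the highest of its group and above every saline library. The log2 fold change was -0.17 (SE 0.10, limma adjusted p 0.185). When dexamethasone library 4 and saline library 3 were both omitted, a fit added after seeing the data, it was -0.28 (adjusted p 0.0173, limma), which made 9 members called in that fit. Over all 27 alternatives its adjusted p ran from 0.0148 to 0.441.

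Dexamethasone library 4 was lowest of its group for 8 of the 10 genes and saline library 3 for 8 of the 10 in saline. Without dexamethasone library 4 the log2 fold changes were -1.81 for H2-Aa, -1.70 for H2-Ab1, -1.84 for H2-Eb1, -1.69 for Cd74 and -1.23 for Ciita, with adjusted p from 6.94e-09 to 8.04e-08 (limma). All 8 falls passed in each of the 27 alternatives, where the adjusted p of these 8 was at most 0.0108. In the authors' deposited table the same 8 genes had an adjusted p under 0.05, with a log2 fold change of -1.80 for Cd74 and -1.32 for Ciita.

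Set against gene length, Cd74, H2-Eb1, H2-Ab1 and H2-Aa stood in the same order of abundance in both groups. As reads per kilobase of annotated exon sequence, scaled by the same library size as CPM, Cd74 averaged 140 ± 27.0 in dexamethasone and 484 ± 97.9 in saline libraries (SD, n = 9 and 4). H2-Eb1 averaged 39.2 ± 8.07 in dexamethasone and 150 ± 29.2 in saline on the same scale. H2-Ab1 averaged 36.7 ± 6.41 and H2-Aa 24.5 ± 5.41 in dexamethasone, against 127 ± 22.2 and 92.4 ± 16.5 in saline. The beta chain H2-Ab1 thus stood above its alpha partner H2-Aa in both groups, within a count that takes every annotated exon as used.

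At the low end of that scale, Rfxap averaged 7.96 ± 0.41 in dexamethasone and 9.57 ± 0.046 in saline, beside H2-DMb1 at 7.82 ± 1.29 in dexamethasone and 18.03 ± 3.24 in saline. H2-DMa averaged 3.52 ± 0.28 in dexamethasone and 8.46 ± 1.26 in saline, and Cd86 2.84 ± 0.37 in dexamethasone and 3.17 ± 0.34 in saline. Ciita averaged 0.909 ± 0.155 in dexamethasone and 2.26 ± 0.34 in saline, so that it lay below Rfx5 in dexamethasone (1.96 ± 0.19) and near it in saline (2.18 ± 0.23).

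**Figure D2:**
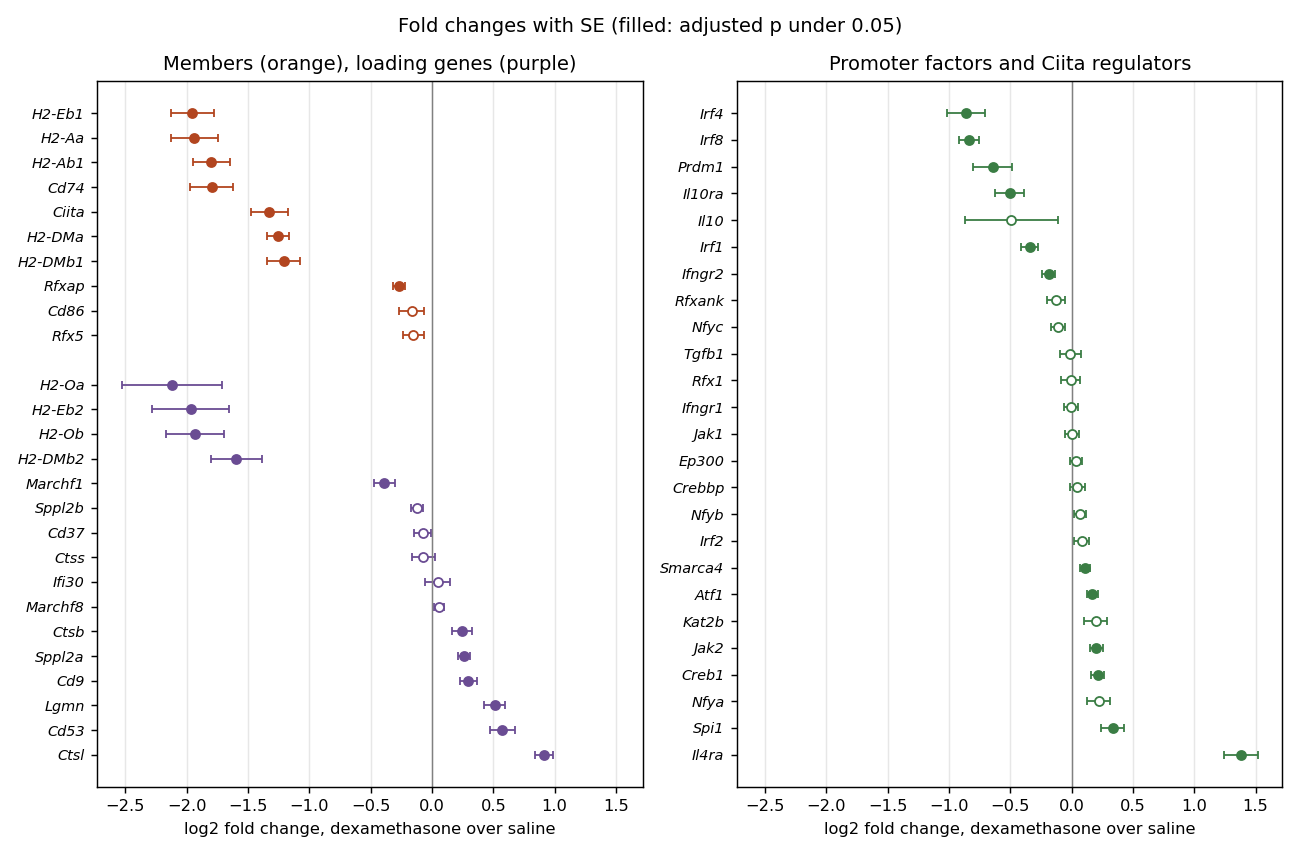
log2 fold change of dexamethasone over saline (horizontal axis) with its SE for the 10 members and 16 loading genes (left panel) and for promoter factors and Ciita regulators (right panel); in the left panel members are orange and loading genes purple, and filled points have an adjusted p under 0.05. The class II chains, members or not, lie between -2.12 and -1.21, while the cathepsins and Lgmn lie above 0 apart from Ctss at -0.07.

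The remaining class II genes fell with the members, and none of the cathepsins passed the test as lower. Of 16 loading and accessory genes, 5 fell and 6 rose, with a median log2 fold change of -0.011. Over all genes, 22.9% fell and 25.2% rose. The falls were H2-Oa (4.34-fold), H2-Eb2, a second E beta gene (3.91-fold), H2-Ob (3.82-fold), H2-DMb2 and Marchf1, the ligase that marks class II and CD86 for degradation (1.31-fold). H2-Oa held 3 to 15 reads per dexamethasone library and 24 to 57 per saline library, so its fold depends on the 0.5 read offset. Restricted to genes averaging 1 log2 CPM or more, the list had 2 falls.

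Among the proteases that trim the invariant chain, Ctsl rose 1.89-fold, Lgmn 1.42-fold and Ctsb 1.19-fold. Ctss, the cathepsin that professional presenting cells use for this step, had a log2 fold change of -0.07 (SE 0.09, limma adjusted p 0.561). Sppl2a, which clears the last membrane stub of the invariant chain, rose 1.20-fold. Ifi30, the lysosomal thiol reductase that opens antigens, had a log2 fold change of 0.05 (SE 0.10, limma adjusted p 0.725).

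The partners of RFX at the promoter showed small differences. Of 26 promoter factors and Ciita regulators, 7 fell and 6 rose, with a median of -0.0010. These counts were near the shares over all genes, of which 22.9% fell and 25.2% rose. Rfxank, Nfya, Nfyb and Nfyc did not pass the test, with log2 fold changes of -0.13, 0.22, 0.07 and -0.11. Creb1 rose 1.16-fold and Atf1 1.12-fold. Irf8 and Irf4, interferon regulatory factors of myeloid, dendritic and B cells, were 1.79- and 1.81-fold lower. Irf1, which carries the interferon gamma signal to a Ciita promoter, was 1.27-fold lower. Prdm1, a repressor of Ciita, was 1.56-fold lower, and Il4ra, the interleukin 4 receptor, rose 2.61-fold.

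Costimulatory and checkpoint ligands moved both ways, with 3 of 8 lower and 2 higher, where 22.9% of all genes fell and 25.2% rose. Cd80, the relative of Cd86, rose 1.59-fold and Tnfsf9 1.84-fold. Icosl, Cd83 and Cd274 were 1.70-, 1.55- and 1.51-fold lower. Cd83 is a protein that stabilises class II and CD86 at the surface, and Cd274 is PD-L1. Cd40 had a log2 fold change of -0.32 (SE 0.13, limma adjusted p 0.0615).

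On the T cell side of the contact all 7 measured genes fell (median -2.13), and all 3 when restricted to those averaging 1 log2 CPM or more. Over all genes, 22.9% fell. Cd4, the coreceptor for class II, was 5.24-fold lower, Lag3, an inhibitory class II receptor, 1.99-fold and Cd28, the receptor of CD86, 1.70-fold. Cd74 is also a receptor for the cytokine MIF. Of 6 genes of that role, Cd44, its signalling partner, rose 2.12-fold and Ackr3 1.35-fold. Ddt, a relative of MIF, was 1.30-fold lower, and Mif itself had a log2 fold change of -0.08 (SE 0.06, limma adjusted p 0.225).

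**Figure D3:**
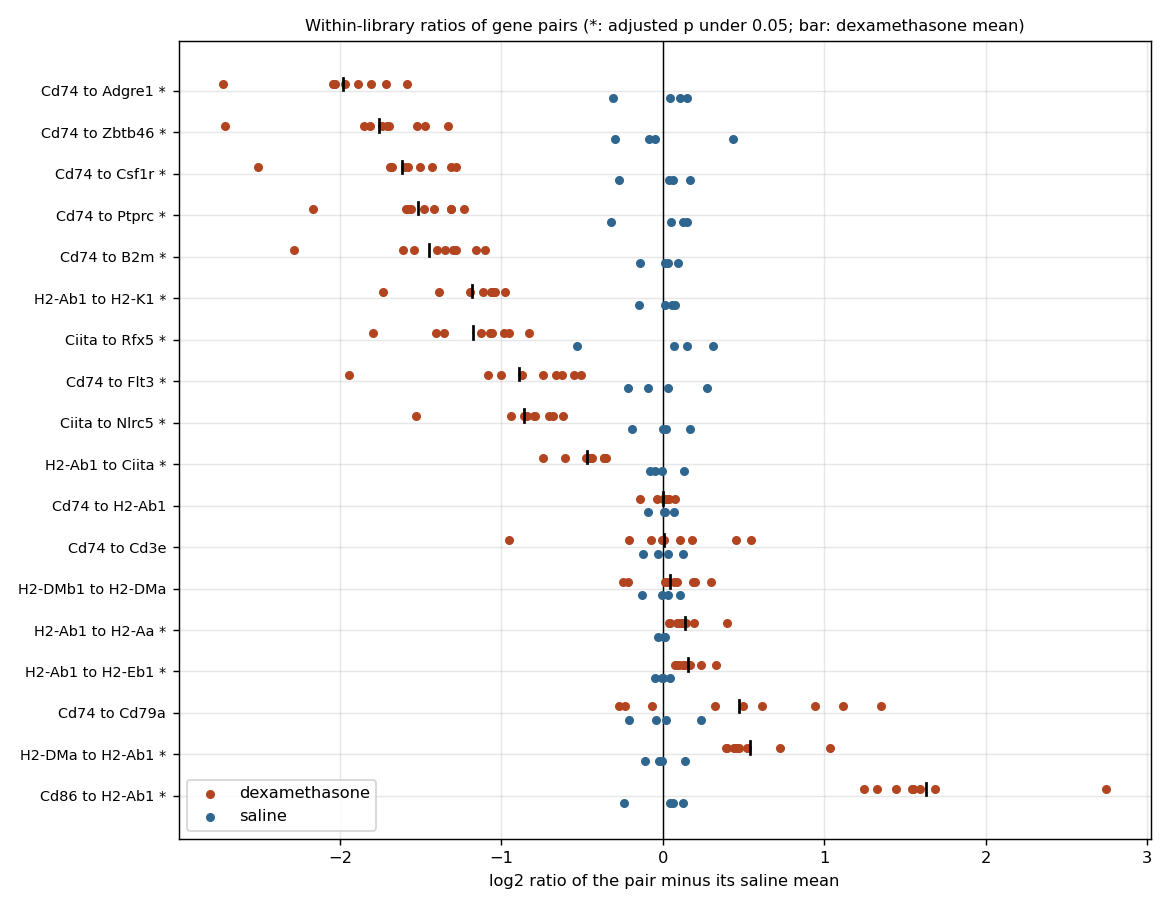
log2 ratio of 18 gene pairs within each library, minus the saline mean of that ratio (horizontal axis), for 9 dexamethasone (orange, upper) and 4 saline libraries (blue, lower); the bar is the dexamethasone mean and a star marks an adjusted p under 0.05. The ratio of Cd74 to H2-Ab1 overlaps between groups, and that of Cd74 to Adgre1 lies 1.98 lower in dexamethasone.

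Ratios within a library test whether a pair of genes changed by the same factor, whatever the library size. In all, 18 pairs were compared by an exact two-sided permutation test over the 715 ways to place 13 libraries in groups of 9 and 4, adjusted over the 18. The smallest p this allows is 0.0028, which 14 pairs reached (adjusted p 0.0036). Cd74 and H2-Ab1 kept one ratio: the log2 ratio was 1.31 ± 0.059 in dexamethasone and 1.31 ± 0.067 in saline (SD, n = 9 and 4), a difference of 0.0003 (exact permutation, adjusted p 0.948). H2-DMb1 to H2-DMa differed by 0.047 (exact permutation, adjusted p 0.721).

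Other ratios inside the class II set were not held. H2-Ab1 to H2-Aa was 0.034 ± 0.11 in dexamethasone and -0.11 ± 0.019 in saline, a small difference of 0.14 in which no library overlapped. H2-Ab1 to H2-Eb1 differed by 0.16. H2-DMa rose relative to H2-Ab1 by 0.54, and H2-Ab1 fell relative to Ciita by 0.47, a 1.39-fold larger fall of the chain gene than of its activator. Cd86 rose relative to H2-Ab1 by 1.63, or 3.10-fold. Ciita fell relative to Rfx5 by 1.17, and relative to Nlrc5, the activator of class I genes, by 0.86. Each of these 7 differences had an exact permutation adjusted p of 0.0036.

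Most class I genes fell too. Of 17 class I presentation genes, 13 fell and 3 rose, with a median of -0.40, where 22.9% of all genes fell and 25.2% rose. B2m, the light chain of class I, was 1.28-fold lower, and H2-K1, a heavy chain, 1.54-fold. H2-Q7, a minor class I gene in a family of similar copies, was 2.90-fold lower, the largest fall among the 17. Cd74 fell relative to B2m by 1.45 and H2-Ab1 relative to H2-K1 by 1.18 on the log2 scale (exact permutation, adjusted p 0.0036 each).

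**Figure D4:**
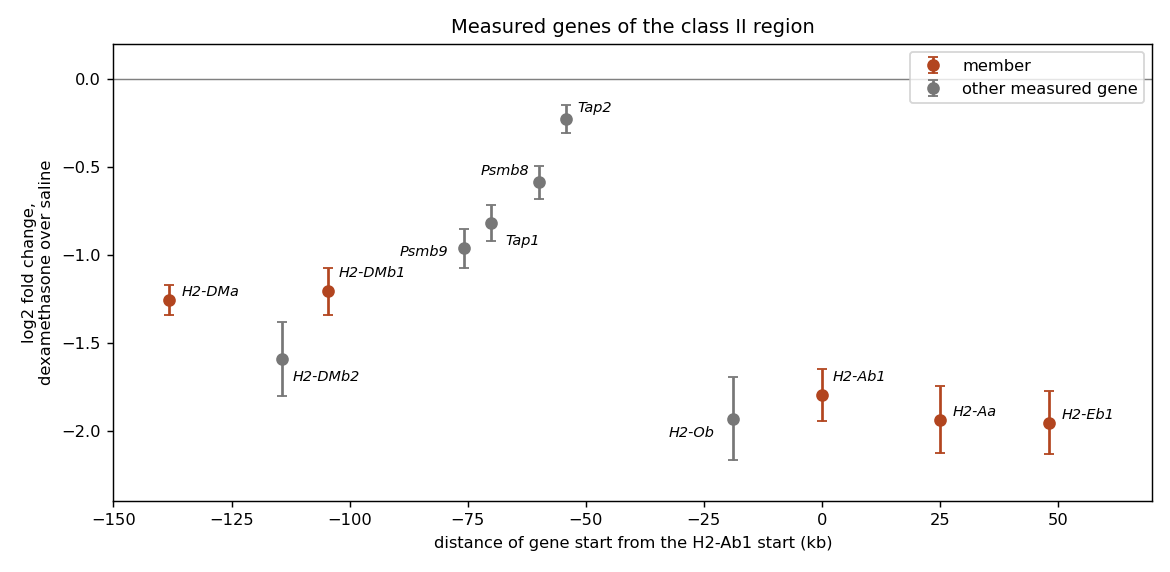
log2 fold change of dexamethasone over saline with its SE (vertical axis) for the 11 measured genes of the class II region, by the distance of the gene start from that of H2-Ab1 in kb (horizontal axis); members are orange and other genes grey. All 11 lie below 0, with the class I loading genes Tap2 and Psmb8 nearest to it at -0.23 and -0.59.

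Across 197 kb of chromosome 17, from H2-DMa to H2-Eb1, class II and class I loading genes lie side by side. All 11 measured genes whose start falls in that stretch were lower, where 22.9% of all genes fell. The stretch is bounded by members, and 5 of the 11 are members already counted above. Psmb9, Tap1, Psmb8 and Tap2, which make and carry peptides for class I, sit between H2-DMb1 and H2-Ob. They were 1.95-, 1.76-, 1.503- and 1.17-fold lower, each less than the class II gene on either side of the block. The Tap2 values overlapped between groups.

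**Figure D5:**
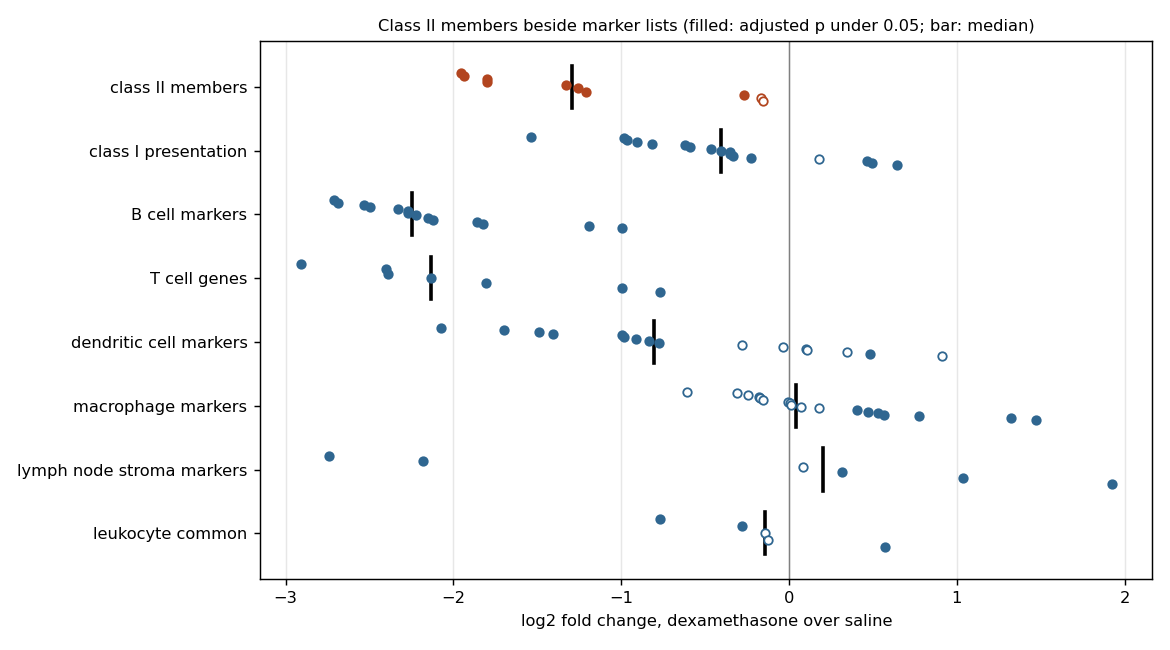
log2 fold change of dexamethasone over saline (horizontal axis) of single genes in the class II set (orange) and in class I, cell type and leukocyte lists (blue); filled points have an adjusted p under 0.05 and the bar is the median of the list. The median of the B cell genes lies at -2.25, and macrophage genes lie on both sides of 0.

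Markers of the cells that carry class II were measured in the same libraries. The counts in these marker lists stand against 22.9% of all genes that fell and 25.2% that rose. B cell markers fell in 14 of 14 (median -2.25). Their summed level was 4.84 to 5.95 log2 CPM in dexamethasone libraries and 6.91 to 7.43 in saline libraries, and library 4 was again the lowest. Most of that sum is Ighm, with a mean of 5.07 in dexamethasone and 6.26 in saline. Cd79a, a B cell receptor subunit, was 4.83-fold lower and Ighm 2.28-fold. Cd79a held 13 to 73 reads per dexamethasone library and 139 to 209 per saline library. Restricted to those averaging 1 log2 CPM or more, all 6 fell.

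Dendritic cell markers split, with 9 of 16 lower and 1 higher (median -0.81; 2 higher when dexamethasone library 4 or saline library 5 was left out, and 3 lower of those averaging 1 log2 CPM or more). The summed level was 8.76 to 8.96 log2 CPM in dexamethasone and 8.58 to 9.15 in saline libraries. Clec9a and Xcr1, of the cross-presenting type, were 2.81- and 4.22-fold lower, and Ccr7, which takes dendritic cells to lymph nodes, 3.24-fold. Xcr1 held 6 to 35 reads per dexamethasone library and 33 to 67 per saline library. Flt3, the growth factor receptor of the lineage, was 1.88-fold lower, while Zbtb46, its marker regulator, showed a log2 fold change of -0.04 (SE 0.09, limma adjusted p 0.745). Fscn1 was the gene that rose, by 1.40-fold. Itgax, Cd209a, Clec10a, Ccl17 and Sirpa did not pass, with log2 fold changes of -0.28, 0.35, 0.10, 0.91 and 0.11.

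Among macrophage markers 7 of 18 rose and 1, Csf1r, fell (median 0.042). The summed level was 11.62 to 11.99 log2 CPM in dexamethasone and 11.30 to 11.84 in saline libraries. Cd163 and Mrc1, receptors of reparative macrophages, rose 2.77- and 2.50-fold. Leaving out saline library 1 gave 5 that rose and 4 that fell, and 0 fell without saline library 3 or 5 or dexamethasone library 2, 5, 6, 7 or 8. Of 6 genes on the lymph node stroma list 2 fell and 3 rose, or 2 and 1 without saline library 1. Glycam1 of lymph node vessels was 6.69-fold lower and Ltb 4.54-fold. Not every gene on that list is limited to stroma, and Ltb is among those that are not. Lyve1, of lymphatic vessels and some macrophages, rose 3.80-fold, Cxcl13, a chemokine for B cells, 2.05-fold and Tnfrsf11a 1.25-fold. Among 5 general leukocyte genes 2 fell and 1 rose, or 4 and 1 without saline library 1 and 1 and 1 without saline library 5. Of 10 muscle fibre genes 2 fell, or 5 without saline library 5, and their summed level was 16.43 to 16.99 log2 CPM in dexamethasone and 16.94 to 17.56 in saline libraries. No marker of these lists was at 0 reads in any library, and the part that changes in cell numbers had in the class II falls was not tested.

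Relative to the carriers, the fall of Cd74 depended on the marker. It fell relative to Ptprc, the common leukocyte antigen, by 1.52 on the log2 scale, relative to Csf1r by 1.62, and relative to Adgre1, the F4/80 antigen, by 1.98. It fell relative to Flt3 by 0.89 and to Zbtb46 by 1.76 (exact permutation, adjusted p 0.0036 for each of the 5). Against Cd79a the log2 ratio was 7.53 ± 0.59 in dexamethasone and 7.06 ± 0.19 in saline (exact permutation, adjusted p 0.181). Against Cd3e of T cells it differed by 0.0077 (exact permutation, adjusted p 0.927), but by -0.81 with log2 of CPM plus 1 (exact permutation, adjusted p 0.0034). Cd3e held 9 to 46 reads per dexamethasone library and 54 to 89 per saline library. With each library centred on its macrophage markers, which shifted the median of all genes to -0.22, the log2 fold change was -2.03 for Cd74 and -1.56 for Ciita.

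Within the 9 dexamethasone libraries the class II chains varied together. Cd74 had a Pearson r of 0.996 with H2-Aa, 0.994 with H2-Ab1 and 0.993 with H2-Eb1, and Spearman rho of 0.967, 0.950 and 0.967. The exact permutation adjusted p was at most 0.000637 for r and 0.0025 for rho, over 21 relations computed. Without the pair of libraries farthest from the median, 4 and 9, r was 0.950, 0.975 and 0.935. Among the other relations, Cd74 passed with H2-DMa (r 0.902, exact permutation adjusted p 0.0202) and H2-DMb1 (r 0.879, exact permutation adjusted p 0.0068). These rested on the libraries left out, with r of 0.438 without libraries 4 and 6 for H2-DMa and 0.616 without 4 and 9 for H2-DMb1, and their rho did not pass.

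The relation of Ciita with the chains was weaker without libraries 4 and 9. Its r was 0.925 with H2-Aa, 0.912 with H2-Ab1, 0.937 with H2-Eb1 and 0.939 with Cd74, with exact permutation adjusted p of 0.0555 to 0.0839. The Spearman rho was 0.467, 0.483, 0.533 and 0.40, and r without libraries 4 and 9 was 0.387, 0.363, 0.490 and 0.356. Library 4 was the lowest dexamethasone library for Ciita and for each of these chains. Library 9 did not go with the relation: its H2-Aa of 6.37 log2 CPM was the next lowest, but its Ciita was 3.21. Ciita with Cd86 had an r of -0.788 (rho -0.65; exact permutation adjusted p 0.0555), and -0.614 without libraries 4 and 6. Cd74 with the mean of B cell markers had an r of 0.516, with dendritic cell markers -0.199, with macrophage markers -0.493 and with lymph node stroma markers -0.553, none of which passed (exact permutation adjusted p 0.203 to 0.620). In saline, 4 libraries were too few for such a relation.

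By deviation from the group mean over all 13 libraries, the genes outside the set most like the mean of H2-Aa, H2-Ab1, H2-Eb1 and Cd74, of 12509 searched, were Usp12 (r 0.928), Impa2 (0.927), Lca5l (0.925), Kmo (0.921) and Galnt5 (0.913). Without dexamethasone library 4 their r was 0.790, 0.779, 0.853, 0.782 and 0.674. Of these, Impa2, an inositol phosphatase, also fell between groups, with a log2 fold change of -1.34 (adjusted p under 0.05, limma), and so did Galnt5 at -0.83. The next 5 were Neurl3, Ctnnal1, Tapbpl, Gm12408 and Actc1, the cardiac actin of regenerating fibres, with r of 0.906 to 0.890. Without dexamethasone library 4 their r was 0.700, 0.706, 0.652, 0.772 and 0.617. They too fell between groups, with log2 fold changes of -0.66, -0.48, -0.32, -1.65 and -2.46 (adjusted p under 0.05 each, limma). For Ciita alone the nearest were Tapbpl, a relative of the class I chaperone tapasin (r 0.942), Extl3 (0.932), Usp12 (0.918) and Ctnnal1 (0.912), and without library 4 their r was 0.775, 0.862, 0.756 and 0.728. These r values describe libraries that share depth and scaling, and carry no p.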

How the data were processed

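The submitters' processing notes name featureCounts 2.0.1, limma 3.50.1 and the build mm10, without their roles. Libraries were stranded and polyA-selected, per the labels' protocols. No aligner, strand setting or gene filter is given in the sources used here. The deposited values are log2 CPM, 1 column a mouse. The authors' comparison, deposited beside them, gives log2 fold changes with p-values. The main table holds 14911 genes; a second holds 14970 and also 1 column of the excluded saline mouse, which was not used. The log2 values gave back whole reads in 100% of values within 0.01, at 28021111 to 34942266 reads per dexamethasone library and 25531487 to 32537345 per saline library. Depth limits the low genes, and folds carry a 0.5 read offset.

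Groups came from the sample titles. A linear model was fitted to the whole table in limma 3.58.1 (R 4.3.3), with an intensity trend, two-sided, and Benjamini-Hochberg adjustment at 0.05. Ratios and correlations used exact permutation (scipy 1.17.1). Members and lists were chosen with earlier results of these data known. All 10 members were named, with list genes of smallest adjusted p and the genes most like the class II chains or Ciita, and the measured genes of the class II region; some list genes are counted but not reported here by name. On simulated data for dexamethasone against saline over 14911 genes, 89 of 100 falls of 1 log2 unit and 57 of 100 of 0.5 were recovered, with 11 false among 157 calls. The simulation changed only those genes and used independent noise, whereas 48.1% of genes were called in the data. Its rates therefore need not carry over to these data. Gene positions and exon lengths are from GENCODE M21 on mm10. Alternatives were the second table, log2 of CPM plus 1, a minimum mean level of 1, median, macrophage and quantile scaling, no trend, robust priors, voom on recovered reads, library weights, rank sum tests, the number as a block and each library left out. Figures were drawn with matplotlib 3.10.9.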

Additional observations from a re-analysis of the deposited data

Results flagged for a closer look

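In 5 of 20 groups of values (10 genes in each of the dexamethasone and saline groups), 1 library lay far from the others by Dixon's test, which chance alone gives in about 1 of 20. All 5 were dexamethasone library 4 at the low end, in genes that vary together and so are not independent. H2-Aa stood at 5.48 log2 CPM there, with the other 8 dexamethasone libraries between 6.37 and 6.84. H2-Ab1 stood at 5.78, against 6.39 to 6.78. H2-Eb1 stood at 5.29, against 6.14 to 6.54. Cd74 stood at 6.95, against 7.77 to 8.11. Ciita stood at 2.31, against 3.11 to 3.36. The same library was the highest of its group for Cd86 and the lowest for the summed B cell markers, at 4.84 log2 CPM. It was also the highest for the summed macrophage markers, at 11.99 log2 CPM, and for the summed lymph node stroma markers, at 7.69. These sums weigh abundant genes most, such as Lyz2 at 10.65 and Lyve1, and single markers split. Among dexamethasone libraries, library 4 was highest for Itgam, Cd14, Lyz2, Mertk, Cd163, Mrc1, Cxcl13 and Lyve1. It was lowest for Adgre1, Ccr2, Cx3cr1, Trem2 and Prox1. Cd163 stood at 7.91 log2 CPM there, with the next library at 6.93, and Lyve1 at 7.38, with the next at 5.88. The cause was not tested.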

How the results depend on the processing

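Over 27 alternatives for each of the 10 genes, 267 of 270 fold changes stayed on the same side of the threshold and none changed sign. The exceptions were Cd86 at -0.40 (adjusted p 0.0148, limma) and Rfx5 at -0.38 (adjusted p 0.020, limma) with libraries centred on the macrophage markers, and Cd86 at -0.28 when dexamethasone library 4 and saline library 3 were omitted, a fit chosen after seeing the data. With 1 library left out, the log2 fold change ran from -1.91 to -1.69 for Cd74, from -1.44 to -1.23 for Ciita and from -0.28 to -0.25 for Rfxap. The macrophage-centred fit is reported for the members' fold changes alone, and all 10 passed in it. It shifted the median log2 fold change of all genes to -0.22, against 0.0071 in the main fit. Without a count of all genes called, its member calls have no share to be read against. In the other alternatives the count of all genes called was 5959 to 7229, and 8 members were called in each except the fit without those 2 libraries, with 9. With the mouse number as a replicate block on the 8 libraries that share one, 5959 genes and 8 members passed, against 6124 and 8 in the same libraries without it; the block changed no member's call, and same-numbered libraries did not deviate together (r from -0.070 to 0.12). Of the pairs, the ratio of Cd74 to Cd3e was -0.81 with log2 of CPM plus 1, against 0.0077; the cause is the offset, which compresses low genes. Of the counts in lists, 583 stayed within 1.5 times and 41 did not.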
